A study of Mus musculus with 20 samples.

Results

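The cytochromes P450 of families 1 to 3 were described in the livers of mouse fetuses whose dams had been fasted for 24 h. They were taken as every row of the deposited table whose gene name is Cyp1, Cyp2 or Cyp3 followed by a subfamily letter and a number, without names marked as pseudogenes (RefSeq holds Cyp2d13 and Cyp2j7 to be pseudogenes, which their names do not show). This gave 61 genes of 45802 rows, and the choice used names only. Of these, 23 reached a log2 value of at least 0 in at least 4 of the 20 libraries, the minimum for testing a difference, against 11807 of all rows. The other 38 stayed below it, and 3 of them (Cyp2b23, Cyp2j11 and Cyp2j12) had no value in any library.

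These enzymes are heme proteins of the endoplasmic reticulum that take electrons from the reductase POR and oxidise drugs, plant compounds, steroids, bile acids and fatty acids. Family 1 answers mainly to the aryl hydrocarbon receptor AHR, while many genes of families 2 and 3 answer to the nuclear receptors CAR (Nr1i3) and PXR (Nr1i2) and need liver transcription factors such as HNF4A and C/EBP alpha. In the mouse, many of them are low before birth and are switched on in the weeks after it, and several have copies that the adult liver expresses mainly in females or mainly in males.

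RNA of 20 livers at stage E17.5 was sequenced, in 5 groups of 4 fetuses, each with 2 females and 2 males, all labelled C57BL/6. In the Ppara part, Ppara-heterozygous fetuses of heterozygous dams (HetDam_HetFetus) stood beside those of Ppara knockout dams (KODam_HetFetus) and beside fetuses that, like their dams, had the knockout (KODam_KOFetus), so that every dam and fetus there carried at least 1 Ppara knockout allele. In the Cpt2 part, Cpt2f/f fetuses of Cpt2f/f dams (FloxDam_FloxFetus) stood beside Cpt2f/f fetuses of Cpt2f/f; Albumin-Cre dams (Cpt2LKODam_FloxFetus). Albumin-Cre drives recombination in hepatocytes, so that these dams lack Cpt2 in the liver while the fetuses are labelled without Cre. PPARA is the receptor that switches on fatty acid oxidation in the fasted liver, and CPT2 is a mitochondrial enzyme that long-chain fatty acids need for oxidation. The titles and the design text call some of the heterozygous or floxed animals wild type, and the genotype labels were followed here.

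Values are log2 values that the authors had quantile normalized, and the quantity under the logarithm is not named. Across 1131 protein-coding genes seen in 3 to 8 libraries, the lowest value fell with exon length (slope -0.78 in log2 units), so the scale behaves as a level per length of transcript. Hepatocyte markers were high everywhere, all 10 at or above 0 in each library. Marker transcripts of other tissues stood out most in 4 libraries: intestine and stomach in HetDam_HetFetus replicate 1, skeletal muscle in HetDam_HetFetus replicate 4 and KODam_KOFetus replicate 2, and pancreas in Cpt2LKODam_FloxFetus replicate 2. Other libraries were not free of them. Of 5 lung markers, 1 was at or above 0 in FloxDam_FloxFetus replicates 1 and 4. Of 8 skeletal muscle markers, 2 were in FloxDam_FloxFetus replicate 2, and 3 in its replicate 4 and in Cpt2LKODam_FloxFetus replicate 4. KODam_HetFetus replicates 1 and 2 share a number in their descriptions that no label explains and are presumed littermates, as are KODam_KOFetus replicates 1 and 2 and FloxDam_FloxFetus replicates 3 and 4. Ppara itself was at 1.87 to 2.48 in KODam_KOFetus, 1.81 to 3.22 in KODam_HetFetus and 2.86 to 3.47 in HetDam_HetFetus. It fell by 0.87 ± 0.264 (SE) on the log2 scale in KODam_KOFetus against HetDam_HetFetus (limma adjusted p = 0.0237), with a difference of -0.30 ± 0.264 against KODam_HetFetus (adjusted p = 0.682). The labels do not say which part of the gene the knockout removes, so reads from the rest of the transcript may remain.

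Promoters of 6 genes of the Cyp3a cluster of chromosome 5 and the Cyp2c cluster of chromosome 19 are shown first. They were chosen with the differences known. Genes that fell elsewhere, such as Cyp2a5, Cyp2e1 and Cyp2f2 of chromosome 7, are not shown, nor is Cyp2c40. The promoters shown are RefSeq sequences of GRCm38.p6, from 250 bases before to 50 after the annotated start. They are written 5′ to 3′ on the minus strand, which holds all 6 genes. Capitals mark CAAAGTNCA, letters recognised by HNF4A. Cyp3a41a and Cyp3a44 rose in fetuses of Ppara knockout dams, Cyp3a16, their neighbour, passed no test, and Cyp2c68, Cyp2c69 and Cyp2c70 fell.
Cyp3a41a: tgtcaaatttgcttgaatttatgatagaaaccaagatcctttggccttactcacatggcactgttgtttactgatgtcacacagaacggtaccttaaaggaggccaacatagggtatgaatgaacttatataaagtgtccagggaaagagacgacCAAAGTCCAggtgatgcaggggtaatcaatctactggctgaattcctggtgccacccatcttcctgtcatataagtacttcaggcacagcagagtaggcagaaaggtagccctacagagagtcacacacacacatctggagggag
Cyp3a44: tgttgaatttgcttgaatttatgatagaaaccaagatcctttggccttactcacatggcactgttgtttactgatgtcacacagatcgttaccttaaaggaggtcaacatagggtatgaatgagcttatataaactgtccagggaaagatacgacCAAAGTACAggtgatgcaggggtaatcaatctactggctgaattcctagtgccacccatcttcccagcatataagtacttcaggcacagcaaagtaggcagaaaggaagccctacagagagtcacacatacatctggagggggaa
Cyp3a16: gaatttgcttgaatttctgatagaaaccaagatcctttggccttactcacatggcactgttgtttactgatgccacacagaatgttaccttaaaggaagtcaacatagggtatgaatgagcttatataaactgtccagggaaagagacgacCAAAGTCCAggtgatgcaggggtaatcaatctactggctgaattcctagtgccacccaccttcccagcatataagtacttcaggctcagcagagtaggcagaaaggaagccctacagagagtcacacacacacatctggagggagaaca
Cyp2c68: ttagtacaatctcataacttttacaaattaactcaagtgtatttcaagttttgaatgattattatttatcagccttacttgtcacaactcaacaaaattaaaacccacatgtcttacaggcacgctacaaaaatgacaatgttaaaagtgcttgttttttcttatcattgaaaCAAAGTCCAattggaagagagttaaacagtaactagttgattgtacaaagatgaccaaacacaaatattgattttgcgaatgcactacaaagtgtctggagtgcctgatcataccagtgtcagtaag
Cyp2c69: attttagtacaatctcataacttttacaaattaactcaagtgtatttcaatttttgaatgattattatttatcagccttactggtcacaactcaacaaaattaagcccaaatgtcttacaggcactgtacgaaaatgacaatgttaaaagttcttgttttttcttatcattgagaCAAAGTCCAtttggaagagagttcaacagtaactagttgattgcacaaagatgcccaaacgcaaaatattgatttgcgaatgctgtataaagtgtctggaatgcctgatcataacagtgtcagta
Cyp2c70: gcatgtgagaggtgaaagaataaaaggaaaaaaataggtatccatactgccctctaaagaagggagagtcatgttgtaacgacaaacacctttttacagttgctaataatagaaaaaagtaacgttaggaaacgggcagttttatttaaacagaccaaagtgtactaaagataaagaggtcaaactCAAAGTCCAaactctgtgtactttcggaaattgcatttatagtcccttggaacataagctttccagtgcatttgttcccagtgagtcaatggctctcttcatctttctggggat

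The first 3 windows lie at chr5:145720087-145720386, chr5:145805825-145806124 and chr5:145469674-145469973, and the last 3 at chr19:39741052-39741351, chr19:39886720-39887019 and chr19:40187237-40187536. The Cyp3a41a window was 94.9% identical to that of Cyp3a16 and 94% identical to that of Cyp3a44, and Cyp3a44 was 95.3% identical to Cyp3a16. Cyp2c69 and Cyp2c68 were 92.6% identical, while Cyp2c70 aligned with them over stretches of only 12 and 17 identical bases. Counted from the annotated start, the capitals begin at base -95 in Cyp3a41a and Cyp3a44, -99 in Cyp3a16, -77 in Cyp2c68, -75 in Cyp2c69 and -64 in Cyp2c70.

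Windows were available for 52 of the 61 genes and for 21 of the 23 tested, and 6 motifs were searched on both strands. The letters CAAAGTNCA were in 10 of the 21 (47.6%), against 1.64% of the windows of 27025 genes. TATAAA, the TATA box, was in 16 (76.2%, against 15.7%), and TTGCNNAA, the C/EBP letters, in 7 (33.3%, against 12.2%). TGTTTAC, the forkhead letters that FOXA proteins bind, was in 4 (19%, against 4.05%), namely Cyp3a11, Cyp3a16, Cyp3a41a and Cyp3a44. GCGTG, the AHR core, was in 1 (4.76%, against 35.2%), and the direct repeat with 1 spacer base that PPARA with RXR can bind was in Cyp2d10 and Cyp2d9 (9.52%, against 0.451%). Near-identical copies share their promoters, so these counts are not counts of independent sequences, and a match describes letters only. The capitals printed above overlapped none of the other motifs. The 6 windows printed were among the 10 with CAAAGTNCA, and called genes such as Cyp2a5, Cyp2a12, Cyp2e1 and Cyp2f2 were not.

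The E17.5 liver expressed few of these genes at a high level. Cyp2d26 (chromosome 15, 82790107 to 82794452, GRCm38.p6) had the highest mean, at 8.43 ± 0.386 (SD, n = 4) in HetDam_HetFetus. Cyp2c68, Cyp2d10, Cyp3a11, Cyp3a16, Cyp2a12 and Cyp2c70 followed, with HetDam_HetFetus means of 6.86 ± 0.292, 5.81 ± 0.0831, 5.55 ± 0.411, 5.36 ± 0.381, 5.53 ± 0.104 and 5.49 ± 0.427. In the order of these means, each of Cyp2d10, Cyp3a11, Cyp2a12, Cyp2c70 and Cyp3a16 overlapped with the next over the 4 libraries, while Cyp2d26 (8.15 to 8.99) and Cyp2c68 (6.48 to 7.19) overlapped with none. Cyp3a16 is the Cyp3a form known from fetal and newborn mouse liver, and Cyp3a11 is the main form of the adult. They stood at about the same level, with medians over the 20 libraries of 5.44 and 5.58. Cyp2e1, which oxidises ethanol and acetone, reached a median of 3.06, and Cyp2b9 one of 0.89.

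**Figure D1:**
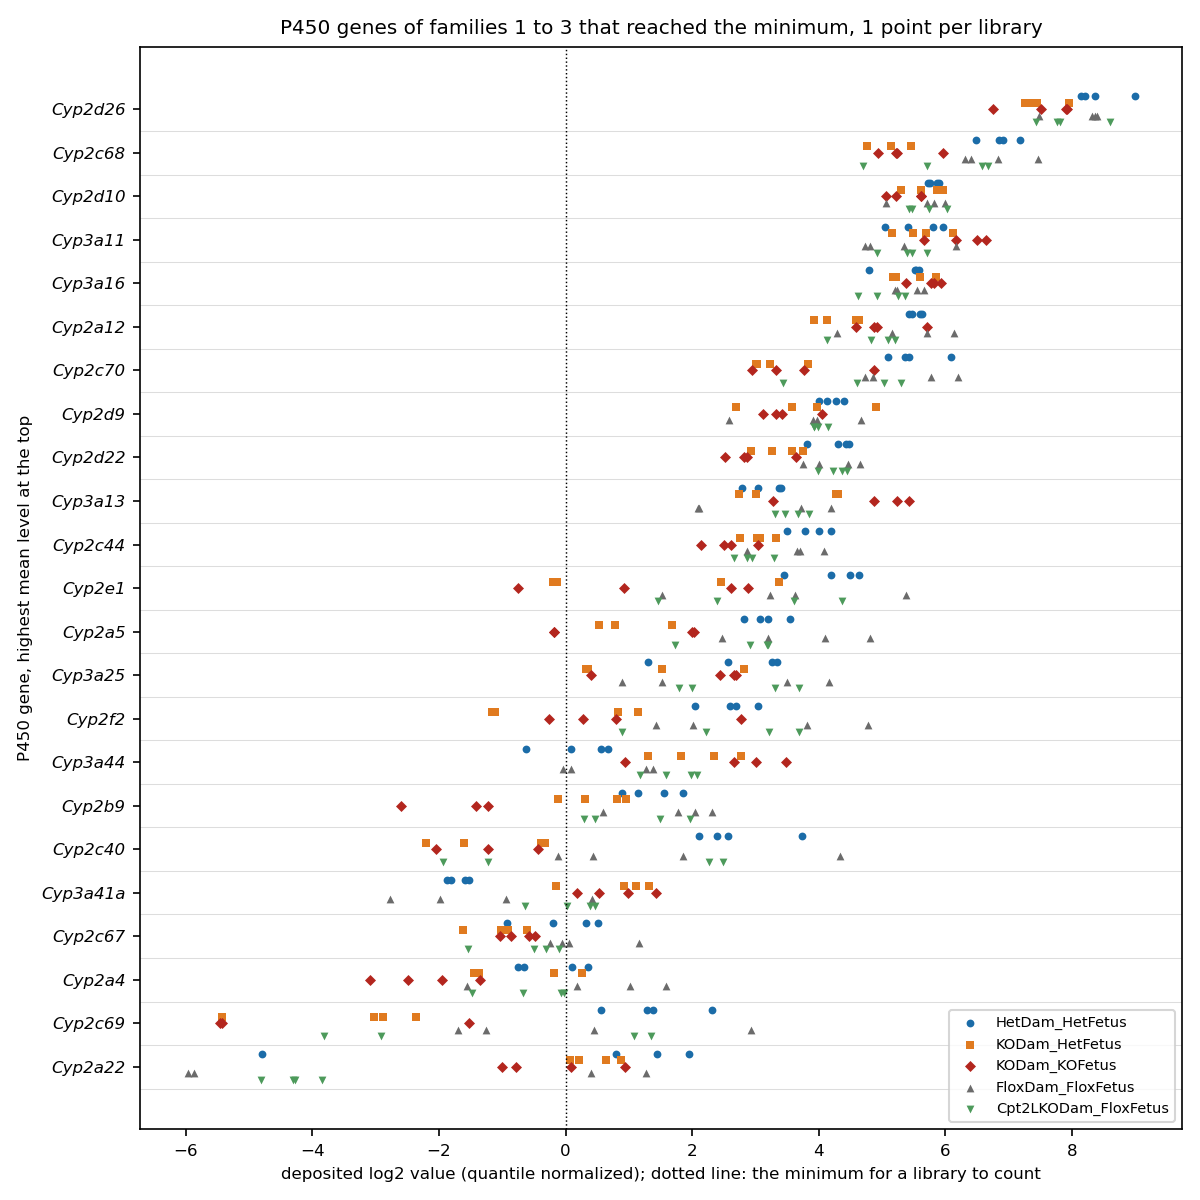
Log2 value (horizontal axis) of each of the 23 P450 genes that reached the minimum (vertical axis, highest mean at the top), with 1 point per library in the colour of its group. Cyp2d26 lies highest at 6.75 to 8.99, and Cyp3a41a and Cyp3a44 are the genes whose HetDam_HetFetus points all lie below those of KODam_HetFetus and KODam_KOFetus.

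All 3 genes of family 1 stayed below the minimum. Cyp1a1, the classic AHR target, had a value in 6 libraries, at -6.26 to -5.29. Cyp1a2, an enzyme of the adult liver, had one in 14, at -5.58 to -3.43, and Cyp1b1, which is expressed mostly outside the liver, had one in all 20, at -6.30 to -2.21. The 8 genes named Cyp2j, a subfamily with epoxygenases of arachidonic acid, were all below the minimum as well, although Cyp2j6 came close with 3 libraries at or above 0. Cyp2r1, a vitamin D 25-hydroxylase, was at -5.72 to -2.34, Cyp2u1 at -5.99 to -2.40 where it had a value, and Cyp2s1 at -2.17 to -0.41.

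Cyp2b10, the standard CAR target of the mouse, had 3 libraries at or above 0 and stood just outside the minimum. Its values ran from -5.55 to 1.22, with 1.22 and 0.26 in Cpt2LKODam_FloxFetus and 0.35 in KODam_KOFetus. Cyp2c29, a main Cyp2c of the adult liver, had a value in 8 libraries, at -5.53 to -3.50. Just inside the minimum were Cyp2c67, with 4 libraries at or above 0, and Cyp2a4, with 6. Cyp2w1 was at -0.08 in HetDam_HetFetus replicate 1 and at most at -4.73 elsewhere, and Cyp2c65 and Cyp2c66 had a value in that library alone. It is the library with transcripts of intestine and stomach, where 6 of 10 such markers were at or above 0, and their part in these values was not tested.

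The question of the first comparison was what the loss of Ppara in the dam does to heterozygous fetuses (KODam_HetFetus minus HetDam_HetFetus). Of the 23 tested P450 genes, 11 fell and 2 rose at an adjusted p under 0.05. Over all 11800 genes with a difference, 39% were called, 12.6% lower and 26.4% higher. The median difference was -0.88 over the 23 genes and 0.14 over all genes. The falls were spread over 5 subfamilies, with 5 of 6 Cyp2c, 2 of 4 Cyp2a, 2 of 4 Cyp2d, Cyp2e1 and Cyp2f2, and both rises were Cyp3a genes. The 23 include 6 that would not pass a minimum of 12 libraries, among them Cyp3a41a, Cyp2c40 and Cyp2c69, and these passed through the groups in which they are high. Of the 17 that pass in 12 libraries, 9 fell and 1 rose. The shares of all genes given above do not apply to that minimum, which 10742 genes passed. These 2 counts therefore have no background beside them. In bulk RNA, fewer cells of a type and less RNA per cell cannot be told apart.

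Cyp2c70, which makes the muricholic acids of the mouse, was at 5.36, 5.43, 5.09 and 6.10 in HetDam_HetFetus and at 3.02, 3.01, 3.24 and 3.84 in KODam_HetFetus. All 4 fetuses of knockout dams were lower than all 4 of heterozygous dams. The gene fell by 2.22 ± 0.423 (SE) on the log2 scale (limma adjusted p = 8.08e-04). Its transcript shares no 75-base window with another gene, so reads of that length can be placed.

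Cyp2c68 was at 6.91, 6.48, 6.85 and 7.19 in HetDam_HetFetus and at 4.77, 5.15, 5.14 and 5.46 in KODam_HetFetus. The groups again did not overlap, and the difference was -1.73 ± 0.346 (adjusted p = 0.00112). Cyp2c69 and Cyp2c40, which the adult mouse liver expresses mainly in females, went from means of 1.38 ± 0.722 and 2.70 ± 0.716 (SD, n = 4) to -3.43 ± 1.36 and -1.13 ± 0.925. These were falls by 4.81 ± 1.23 (adjusted p = 0.00563) and 3.83 ± 0.964 (adjusted p = 0.00512), again without overlap. At levels this low the size depends on the scale: with a pseudocount of 4 added to the linear values, Cyp2c69 fell by 0.72. Cyp2c44, named Cyp2c23 in RefSeq and known for arachidonic acid epoxygenation, fell by 0.83 ± 0.23 (adjusted p = 0.00887). Cyp2c67 was the one tested Cyp2c gene with no call, at -0.96 ± 0.382 (adjusted p = 0.0525).

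Reads of Cyp2c40, Cyp2c67, Cyp2c68 and Cyp2c69 cannot all be told apart, since 57.1%, 36%, 28.5% and 43.2% of their 75-base windows also occur in another gene. Summed as 1 gene, these 4 fell by 1.81 ± 0.366 (limma adjusted p = 0.00119). The split of the fall among them is therefore uncertain. Cyp2c68 held most of the sum, so its fall shows little about the other genes. How shared reads were counted is not given, so the sum may depend on that as well.

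Cyp2a5, the coumarin 7-hydroxylase, was at 3.07, 2.82, 3.55 and 3.19 in HetDam_HetFetus and at 0.52, 0.52, 0.78 and 1.69 in KODam_HetFetus. It fell by 2.28 ± 0.533 (limma adjusted p = 0.00302), and the groups did not overlap. Cyp2a4, a steroid 15-alpha-hydroxylase with which it shares windows, had a difference of -0.45 ± 0.588, and their sum fell by 1.97 ± 0.521 (adjusted p = 0.00647). Cyp2a12, which rehydroxylates secondary bile acids in the mouse, was at 5.42 to 5.63 in HetDam_HetFetus and 3.92 to 4.64 in KODam_HetFetus, a fall by 1.21 ± 0.319 (adjusted p = 0.0064).

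Cyp2e1 was at 4.20, 4.49, 3.44 and 4.64 in HetDam_HetFetus and at -0.13, -0.20, 2.46 and 3.38 in KODam_HetFetus. Its highest fetus of a knockout dam lay just under the lowest of a heterozygous dam, and the 2 lowest were the presumed littermates. The difference was -2.82 ± 0.916 (limma adjusted p = 0.021). Cyp2f2, known for activating naphthalene in mouse airways, was at 2.04 to 3.04 in HetDam_HetFetus and at -1.17, -1.12, 1.14 and 0.82 in KODam_HetFetus. The presumed littermates were again the lowest, and the groups did not overlap. It fell by 2.67 ± 0.767 (adjusted p = 0.0108).

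The gene with the highest level fell too. Cyp2d26 was at 8.21, 8.15, 8.37 and 8.99 in HetDam_HetFetus and at 7.26, 7.44, 7.35 and 7.96 in KODam_HetFetus, and fell by 0.93 ± 0.286 (limma adjusted p = 0.0161). Cyp2d22, often taken as the mouse counterpart of human CYP2D6, fell by 0.87 ± 0.237 (adjusted p = 0.00783). Cyp2d9, a testosterone 16-alpha-hydroxylase of adult males, and Cyp2d10 had no call, at -0.41 ± 0.382 (adjusted p = 0.407) and -0.13 ± 0.193 (adjusted p = 0.62).

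The Cyp3a genes did otherwise. Cyp3a41a, which the adult mouse liver expresses mainly in females, was at -1.60, -1.87, -1.53 and -1.80 in HetDam_HetFetus and at 1.10, 0.92, -0.16 and 1.32 in KODam_HetFetus. Every fetus of a knockout dam was higher, and the difference was 2.50 ± 0.504 (limma adjusted p = 0.00118), or 5.64-fold. Cyp3a44, also a female form of the adult, was at 0.67, 0.55, 0.09 and -0.63 against 1.30, 1.82, 2.35 and 2.77, and rose by 1.89 ± 0.471 (adjusted p = 0.00459) without overlap. At levels this low the size of both rises depends on the scale. With a pseudocount of 4 added to the linear values, Cyp3a41a rose by 0.43 and Cyp3a44 by 0.68, and both kept the call.

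Cyp3a16 had a difference of 0.10 ± 0.204 (adjusted p = 0.717), Cyp3a11 of 0.06 ± 0.298 (adjusted p = 0.888), Cyp3a13 of 0.43 ± 0.487 (adjusted p = 0.507) and Cyp3a25 of -1.36 ± 0.737 (adjusted p = 0.149). Whether the rise of Cyp3a44 differs from the value of Cyp3a16, whose promoter window printed above is nearly the same, was not tested. The transcript of Cyp3a41a shares 91.1% of its windows with Cyp3a41b, which stayed below the minimum with 1 library at or above 0. The sum of both rose by 2.68 ± 0.43 (adjusted p = 2.77e-04). Cyp3a44 shares 11% of its windows with other genes.

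**Figure D2:**
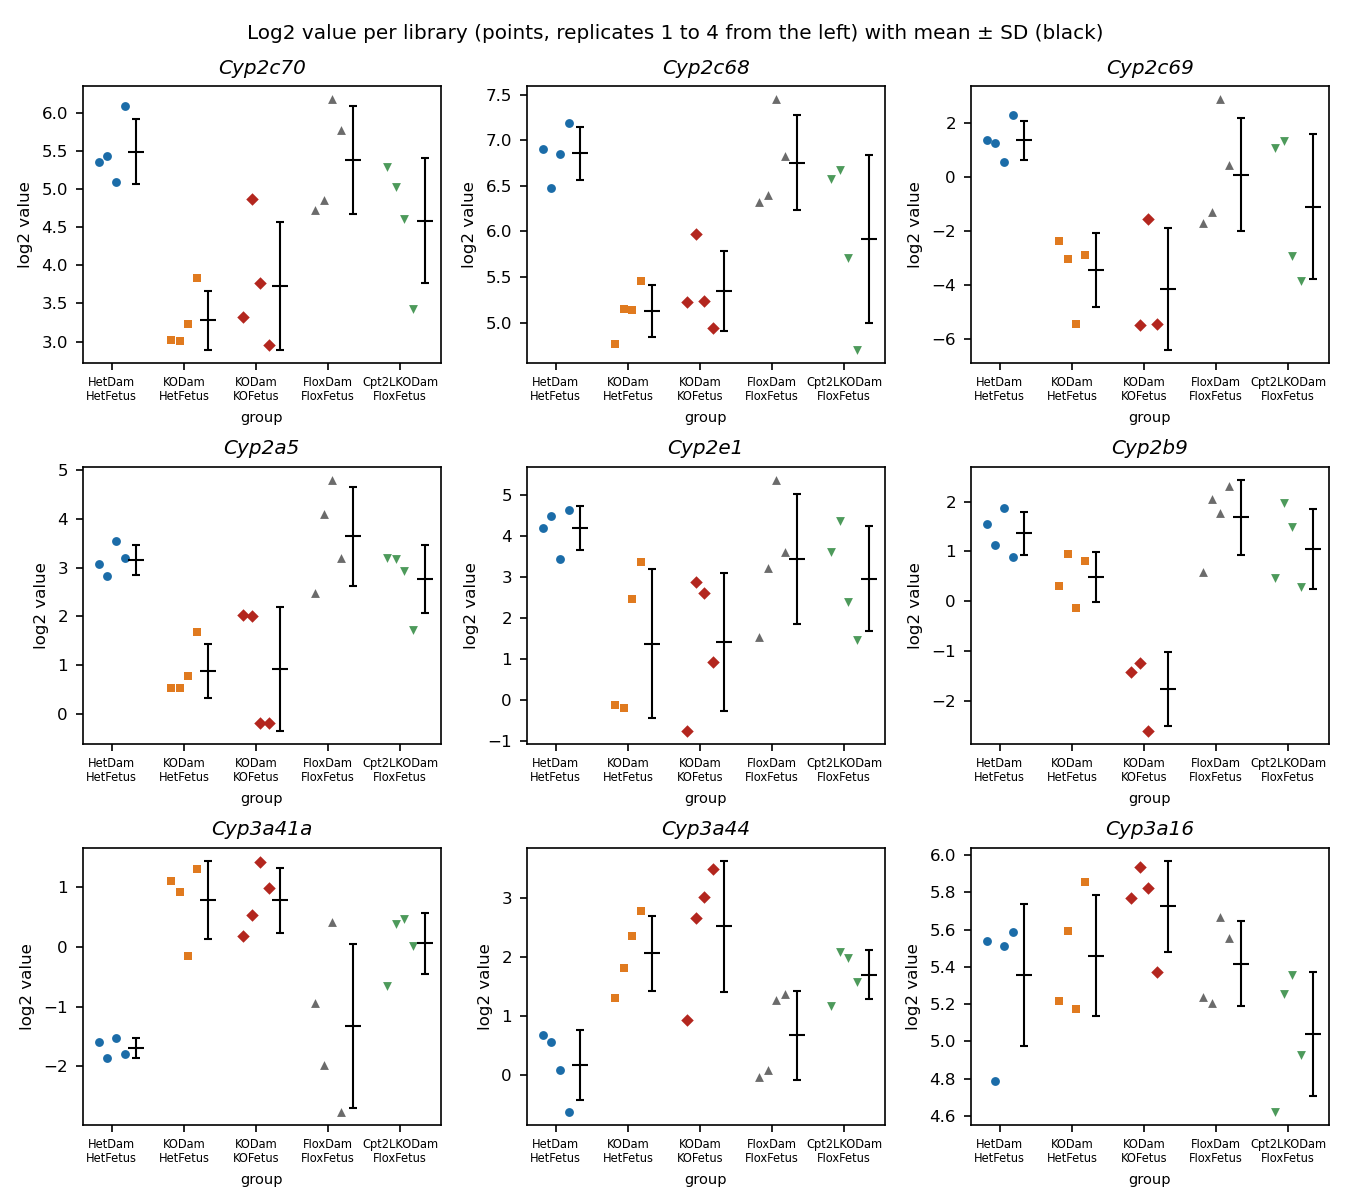
Log2 value (vertical axes, each panel with its own range) of 9 P450 genes in the 5 groups, with 1 point per library and the mean ± SD over the libraries with a value in black. Cyp2c70 lies at 5.09 to 6.10 in HetDam_HetFetus and 3.01 to 3.84 in KODam_HetFetus, Cyp3a41a goes the other way, Cyp3a16 lies at 4.62 to 5.93 over all 20 libraries, and Cyp2b9 is lowest in KODam_KOFetus.

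These calls did not all rest on all fetuses alike. Without the presumed littermate pair of KODam_HetFetus, which leaves 2 fetuses in that group, 5 genes were lower and 2 higher. Cyp2c70, Cyp2c68, Cyp2a5, Cyp2c69 and Cyp2c44 kept their falls, and Cyp3a41a and Cyp3a44 their rises. Cyp2e1 then had a difference of -1.28 (limma adjusted p = 0.361), Cyp2f2 of -1.61 (0.19), Cyp2c40 of -3.06 (0.0724), Cyp2a12 of -0.92 (0.0945), Cyp2d22 of -0.59 (0.127) and Cyp2d26 of -0.78 (0.125). Without the 4 libraries with transcripts of other tissues, 7 genes were lower, and Cyp2c40, Cyp2c44, Cyp2d26 and Cyp2e1 had no call, at -3.38, -0.60, -0.75 and -2.59 (adjusted p = 0.0511, 0.135, 0.121 and 0.102). Single libraries ended the call of Cyp2d26 (-0.74 without HetDam_HetFetus replicate 4, adjusted p = 0.0599) and of Cyp2e1 (-2.31 and -2.29 without KODam_HetFetus replicate 1 or 2, adjusted p = 0.076 and 0.072). Littermates as a block ended that of Cyp2e1 as well (-2.48, adjusted p = 0.0835), a pseudocount of 4 that of Cyp2f2 (-0.97, adjusted p = 0.0584), and blanks at the lowest value of the library that of Cyp2c40 (-3.83, adjusted p = 0.124).

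Markers of blood cells were read in the same comparison. Of 7 neutrophil markers 5 fell, against 12.6% of all genes, with a median of -0.80, and their summed log2 level was 12.36 to 12.98 in HetDam_HetFetus and 11.57 to 12.34 in KODam_HetFetus. Of 9 erythroid markers 2 were called higher, a share near the 26.4% of all genes, with a median of 0.23. Their summed level was 17.38 to 17.74 and 17.72 to 17.82, but globins make up most of this sum. Hba-a1 stood at 16.36 in every library of both groups, because quantile normalization fixes the values of the top ranks. The sum can therefore not show how large the erythroid share was. Of 10 hepatocyte markers only Afp, which fetal hepatocytes make, was called, higher by 0.57 ± 0.186 (limma adjusted p = 0.0213), and their summed level was 16.31 to 17.10 and 16.21 to 16.68. The part of cell composition in the P450 values was not tested.

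The sum of the 23 genes on the linear scale was 834 ± 132 (SD, n = 4) in HetDam_HetFetus and 468 ± 113 in KODam_HetFetus. The lowest sum of the first group was 719, and the highest of the second was 631. Cyp2c genes made up 22.7% ± 1.65 and 11.8% ± 0.969 of it, and Cyp3a genes 13.2% ± 3.21 and 25.1% ± 1.35. Cyp2d26 alone held 42% ± 5.46 and 39.6% ± 2.71. In KODam_KOFetus the sum was 540 ± 102, with 11.6% ± 2.03 in Cyp2c and 33.1% ± 8.75 in Cyp3a genes. Since the sums of these 2 groups were lower, their larger Cyp3a shares do not by themselves show a higher Cyp3a level. In the Cpt2 part it was 759 ± 249 in FloxDam_FloxFetus and 602 ± 115 in Cpt2LKODam_FloxFetus. These sums describe the levels of the genes that had passed the minimum and were not tested.

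**Figure D3:**
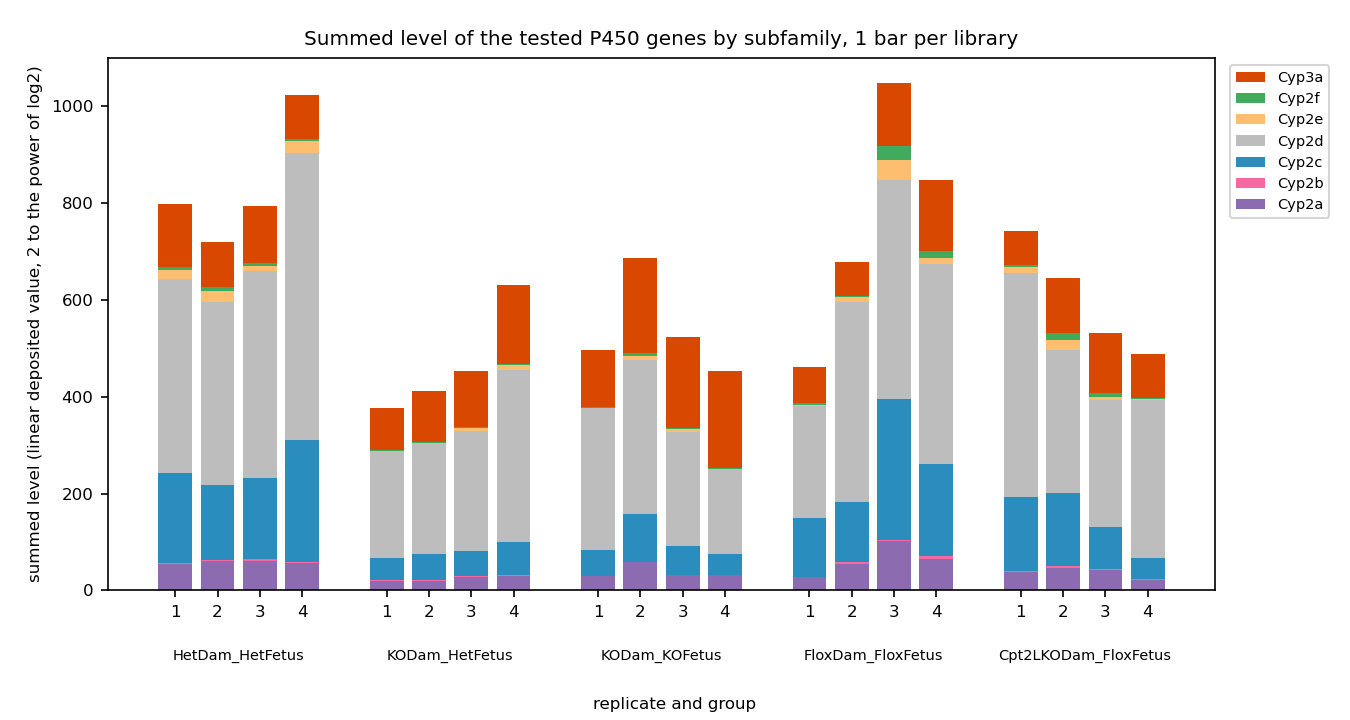
Summed linear level of the 23 P450 genes (vertical axis, 2 to the power of the deposited log2 value) in each library (horizontal axis, replicates within groups), with bar sections for the subfamilies. Cyp2d is the largest section in most libraries, the Cyp2c section is small in KODam_HetFetus and KODam_KOFetus, and the sums of HetDam_HetFetus (719 to 1024) lie above those of KODam_HetFetus (376 to 631).

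The loss of Ppara in the fetus itself was addressed by KODam_KOFetus minus KODam_HetFetus, where all dams are knockout. No presumed litter held fetuses of both genotypes, so fetal genotype and litter cannot be told apart here. Of the 23 genes, 1 fell and none rose by limma, against 0.796% and 0.0254% of all 11805 genes, and 5 had an unadjusted p under 0.05 against 10.9% of all genes. The gene that fell was Cyp2b9, which adult females express more. It was at 0.31, 0.96, -0.13 and 0.81 in KODam_HetFetus, at -1.42, -1.23 and -2.60 in replicates 1 to 3 of KODam_KOFetus, and had no value in replicate 4. The difference over the 3 libraries with a value was -2.24 ± 0.459 (limma adjusted p = 0.018), without overlap.

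Cyp2b9 lost this call under 8 of 34 alternatives. Among them were a pseudocount of 4 (-0.33, adjusted p = 0.407), a fit of these 2 groups alone (-2.24, adjusted p = 0.0935), littermates as a block (-2.34, adjusted p = 0.0509) and the absence of replicate 3 of KODam_KOFetus (-1.81, adjusted p = 0.0884), of replicate 2 of KODam_HetFetus (-2.08, adjusted p = 0.0675) or of its replicate 4 (-2.13, adjusted p = 0.0705). The others were the absence of the littermate pair (-2.09, adjusted p = 0.139) and blanks set to the lowest value of the library (-5.08, adjusted p = 0.286).

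Of the other genes, Cyp2a4 had a difference of -1.53 ± 0.588 (adjusted p = 0.371), Cyp3a13 of 1.12 ± 0.487 (adjusted p = 0.433) and Cyp3a11 of 0.63 ± 0.298 (adjusted p = 0.455). Among the genes called for the dam's genotype, Cyp2c70 had a difference of 0.45 ± 0.423 (adjusted p = 0.704), Cyp2a5 of 0.04 ± 0.533 (adjusted p = 0.985) and Cyp3a41a of -0.01 ± 0.504 (adjusted p = 0.994).

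Knockout fetuses of knockout dams were also set against heterozygous fetuses of heterozygous dams, a comparison that shares groups with both others. Of the 23 genes, 11 fell and 3 rose, against 7.31% and 17.4% of 11801 genes. Their median difference was -0.91, and that of all genes was 0.14. Of the 17 genes above the minimum in 12 libraries, 8 fell and 2 rose. The shares of all genes under that minimum, which 10742 genes passed, are not given here, so these counts have no background.

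Cyp2b9 had the smallest p here, with 0.89 to 1.86 in HetDam_HetFetus and at most -1.23 in KODam_KOFetus. It fell by 3.11 ± 0.459 (limma adjusted p = 3.64e-04), and kept the call under all 34 alternatives tried. Cyp2c44 fell by 1.30 ± 0.23 (adjusted p = 0.00104) and Cyp2d22 by 1.29 ± 0.237 (adjusted p = 0.00132), with no overlap between the groups. Cyp2c68, Cyp2c70 and Cyp2a5 fell by 1.51 ± 0.346, 1.77 ± 0.423 and 2.24 ± 0.533 (adjusted p = 0.00498, 0.00647 and 0.00623). Cyp2c69 and Cyp2c40, which had no value in replicate 1 of KODam_KOFetus, fell by 5.52 ± 1.33 (adjusted p = 0.00717) and 3.94 ± 1.04 (adjusted p = 0.012) over the other 3 libraries.

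Cyp2a4, which is low throughout, fell by 1.98 ± 0.588 (limma adjusted p = 0.0207), Cyp2d26 by 0.91 ± 0.286 (adjusted p = 0.0278) and Cyp2e1 by 2.78 ± 0.916 (adjusted p = 0.0336). Cyp2a12 and Cyp2f2 had differences of -0.51 ± 0.319 (adjusted p = 0.247) and -1.70 ± 0.767 (adjusted p = 0.109), both with overlapping groups.

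Cyp3a44 rose by 2.35 ± 0.471 (limma adjusted p = 0.00231) and Cyp3a41a by 2.48 ± 0.504 (adjusted p = 0.00248). With a pseudocount of 4 these rises were 0.99 and 0.42, and both kept the call. Cyp3a13, a Cyp3a gene expressed in liver and intestine, was at 3.38, 3.41, 3.04 and 2.78 in HetDam_HetFetus and at 3.28, 4.87, 5.42 and 5.24 in KODam_KOFetus. It rose by 1.55 ± 0.487 (adjusted p = 0.027), although replicate 1 of KODam_KOFetus lay within the range of HetDam_HetFetus. Cyp3a11 had a difference of 0.69 ± 0.298 (adjusted p = 0.0929) and Cyp3a16 of 0.37 ± 0.204 (adjusted p = 0.189).

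Without the 4 libraries with transcripts of other tissues, 6 genes fell and 2 rose. Cyp2c40, Cyp2c69, Cyp2a4, Cyp2d26, Cyp2e1 and Cyp3a13 then had no call, at -3.49, -4.40, -2.03, -0.86, -3.04 and 1.42 (limma adjusted p = 0.102, 0.102, 0.102, 0.123, 0.0956 and 0.172). With a pseudocount of 4, Cyp2c69 was at -0.71 (adjusted p = 0.0528) and Cyp2a4 at -0.21 (adjusted p = 0.145). With littermates as a block Cyp2e1 had no call, at -2.70 (adjusted p = 0.0815). Cyp2e1, Cyp2a4, Cyp3a13 and Cyp2d26 also lost it when single libraries were left out, with differences of -2.78 to -2.05, -1.87 to -1.69, 1.31 to 1.51 and -0.90 to -0.65 and limma adjusted p of at most 0.117, 0.0704, 0.0829 and 0.11 among those losses. For Cyp2e1 these were replicates 1, 2 and 4 of HetDam_HetFetus and 1 and 4 of KODam_KOFetus, and for the other 3 genes they lay among replicates 3 and 4 of both groups. Neutrophil markers had 3 of 7 lower in this comparison, against 7.31% of all genes. Their summed level was 11.85 to 12.64 in KODam_KOFetus and 12.36 to 12.98 in HetDam_HetFetus, which overlap. Erythroid markers had 3 of 9 higher, against 17.4% of all genes, with a median of 0.30. Their summed level, again bound by the globins, was 17.73 to 17.83. The part of either in the P450 values was not tested.

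**Figure D4:**
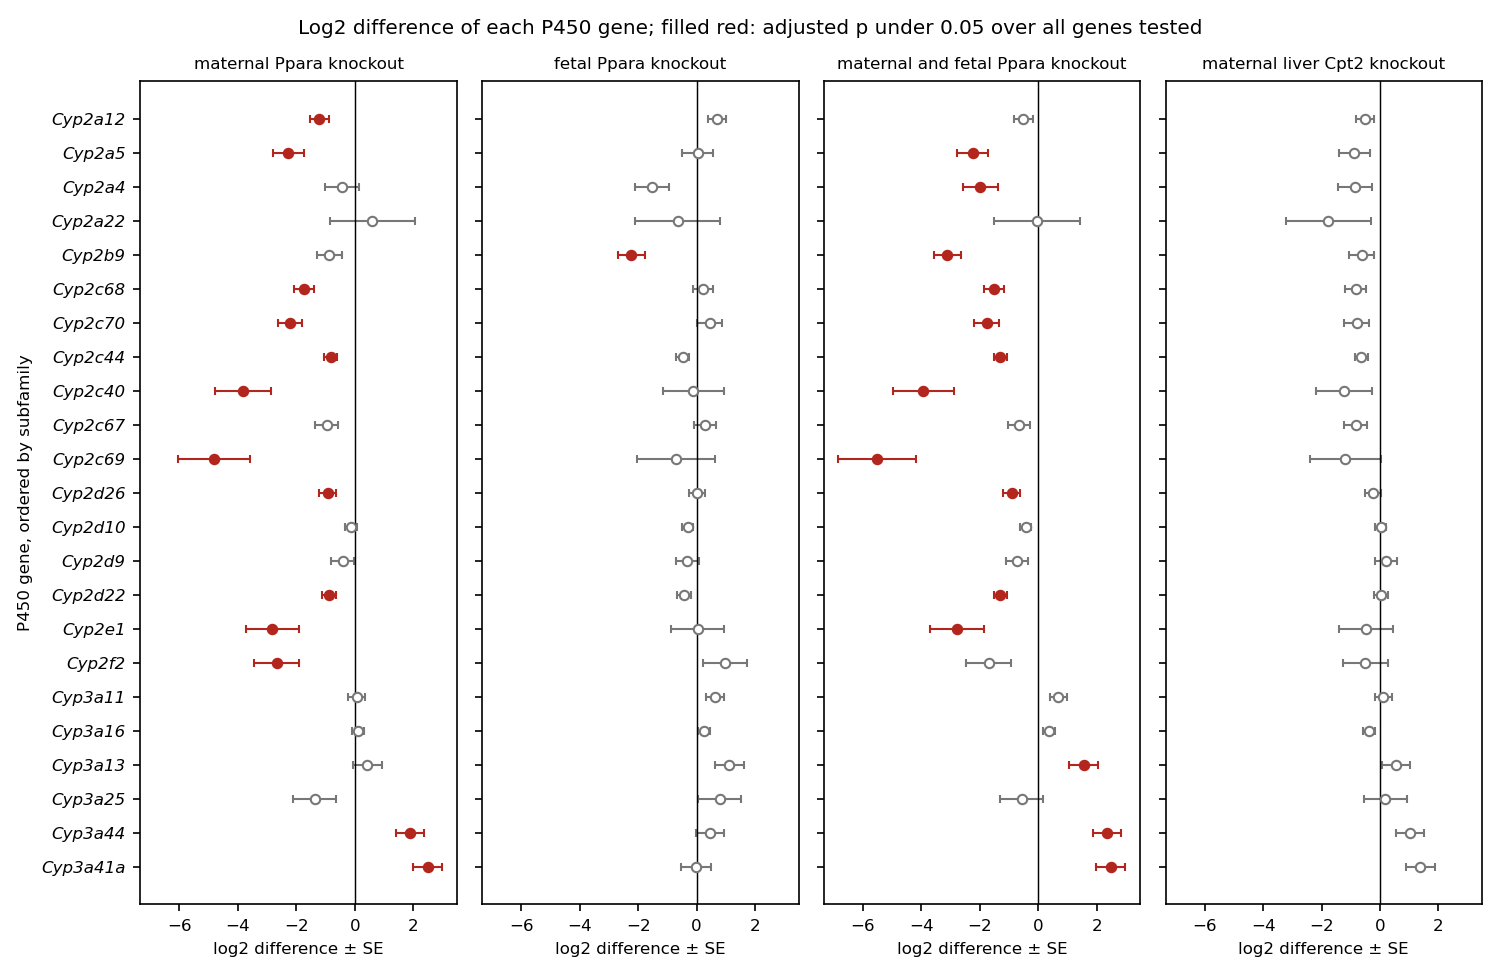
Log2 difference ± SE (horizontal axes) of the 23 P450 genes, ordered by subfamily, in 4 comparisons, with filled red points for an adjusted p under 0.05 over all genes tested. The panels hold 13, 1, 14 and 0 filled points, and the Cyp3a genes are the ones filled to the right of 0.

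The loss of Cpt2 in the dam's liver was addressed by Cpt2LKODam_FloxFetus minus FloxDam_FloxFetus. By limma 0 of the 23 genes and 0% of 11805 genes were called, while 5 of the 23 and 11.1% of all genes had an unadjusted p under 0.05. The median difference over the 23 was -0.51. Cyp2c44 was at 3.29, 2.66, 2.95 and 2.86 in fetuses of these dams and at 3.70, 2.87, 3.65 and 4.08 in controls, a difference of -0.64 ± 0.23 (adjusted p = 0.377). Cyp3a41a differed by 1.38 ± 0.504 (adjusted p = 0.377), Cyp3a44 by 1.03 ± 0.471 (adjusted p = 0.436), Cyp2c68 by -0.84 ± 0.346 (adjusted p = 0.395) and Cyp2c67 by -0.84 ± 0.382 (adjusted p = 0.435). All 5 had overlapping groups. Some P450 genes were spread widely within FloxDam_FloxFetus: Cyp2c69 was at -1.70, -1.26, 2.92 and 0.45 there, and Cyp2f2 at 2.01, 1.42, 4.78 and 3.82. For Cyp2c69 the SD was 2.10 in that group and 2.67 in Cpt2LKODam_FloxFetus.

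Whether the effect of the dam's genotype differed between the Ppara and the Cpt2 part was tested as a difference of differences. By limma 0 of the 23 genes and 0% of 11798 genes were called, and 2 of the 23 had an unadjusted p under 0.05, against 19.9% of all genes. Cyp2d22 differed by -0.91 ± 0.335 (adjusted p = 0.168) and Cyp2c70 by -1.42 ± 0.598 (adjusted p = 0.206). So no P450 gene was shown to respond to one maternal genotype and not to the other.

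The control groups, HetDam_HetFetus minus FloxDam_FloxFetus, differed in 0 of the 23 genes by limma, against 0.136% of 11800 genes (0.0593% higher and 0.0763% lower). None of the 23 had an unadjusted p under 0.05, against 16.5% of all genes. Cyp2a22, a neighbour of Cyp2a12 with 13.4% of its windows shared, split the libraries otherwise than the groups did. It lay at -5.97 to -3.86 in 7 libraries (HetDam_HetFetus replicate 3, FloxDam_FloxFetus replicates 2 and 3 and all 4 of Cpt2LKODam_FloxFetus) and at -1.01 to 1.95 in the other 13. It had no call in any comparison.

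Sex was tested within groups, since many of these genes differ between adult males and females. By limma 0 of the 23 genes were called, against 0.0508% of 11807 genes, and 1 had an unadjusted p under 0.05, against 5.19% of all genes. That was Cyp2a5, higher in males by 0.73 ± 0.3 (adjusted p = 0.855). The adult female forms Cyp3a44 and Cyp2b9 had male minus female differences of -0.42 ± 0.29 (adjusted p = 0.856) and 0.07 ± 0.285 (adjusted p = 0.975), and the adult male form Cyp2d9 of 0.04 ± 0.248 (adjusted p = 0.987).

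Genes that supply or regulate P450 enzymes were counted from lists. Of 17 partners of P450 enzymes and genes of heme supply, all were tested, and in fetuses of Ppara knockout dams 2 rose and 1 fell, with a median of 0.17, against 26.4% and 12.6% of all genes and a median of 0.14. These shares are not above those of all genes. Those that rose were Urod by 0.69 ± 0.166 (limma adjusted p = 0.00376) and Fech by 0.65 ± 0.177 (adjusted p = 0.00755), both of heme synthesis, and Uros of the same pathway fell by 0.63 ± 0.242 (adjusted p = 0.047). Erythroid cells express these genes too, and 2 of 9 erythroid markers were called higher in the same comparison, near the share of all genes. Globins are among these markers, and their place at the top of the scale limits what this count can show. The part of erythroid cells was not tested. The reductase Por had a difference of 0.32 ± 0.279 (adjusted p = 0.383). In the fetal knockout comparison Hmox1, heme oxygenase, rose by 0.51 ± 0.104 (adjusted p = 0.0155).

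Of 38 transcription factors known to act on P450 genes, 32 were tested, and in fetuses of knockout dams 7 fell and 4 rose, against 12.6% and 26.4% of all genes, with a median of -0.05. Cebpa, which hepatocytes and myeloid cells both use, was at 5.53, 6.05, 6.00 and 6.10 in HetDam_HetFetus and at 3.69, 3.58, 4.41 and 4.47 in KODam_HetFetus, a fall by 1.88 ± 0.287 (limma adjusted p = 2.06e-04). Foxa3, Foxa2 and Nr1h4, the bile acid receptor gene, fell by 1.56 ± 0.275, 1.14 ± 0.253 and 1.41 ± 0.415 (adjusted p = 4.90e-04, 0.00212 and 0.0121). Ahr rose by 1.54 ± 0.321 (limma adjusted p = 0.00142). Other listed factors differed too. Nr1d1 was at 0.13 to 2.05 in HetDam_HetFetus and 2.07 to 4.19 in KODam_HetFetus, and Nr1h3 at 2.93 to 3.14 and 0.87 to 1.57. The neutrophil markers that fell in the same comparison stand beside the fall of Cebpa, and their part in it was not tested.

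Nr1i2, Nr1i3 and Hnf4a had no call there, at -0.20 ± 0.188 (adjusted p = 0.409), -0.03 ± 0.313 (adjusted p = 0.957) and -0.47 ± 0.244 (adjusted p = 0.136). In the comparison of both knockouts 9 fell and 2 rose, against 7.31% and 17.4% of all genes, and Nr1i2, the PXR gene, fell by 0.56 ± 0.188 (adjusted p = 0.0351). In fetuses of knockout dams, 1 of 5 tested AHR targets and 1 of 10 tested CAR and PXR targets were called each way. Over all genes 26.4% were called higher and 12.6% lower. Lists this small cannot show whether the targets moved in one direction.

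Fetuses also differed within groups. Standardised over the 20 libraries and averaged over the 23 genes, the P450 level was highest in FloxDam_FloxFetus replicate 3 (1.12) and lowest in KODam_HetFetus replicate 1 (-0.76), and ran from 0.33 to 0.61 in HetDam_HetFetus and from -0.76 to 0.28 in KODam_HetFetus. The 8 genes most like it over the 20 libraries, by Pearson r, were Vsir (0.951), Acox3 (0.939), Hp (0.939), Xdh (0.924), Pgd (0.923), Phyh (0.918), Myo1f (0.916) and Azgp1 (0.914). For deviations from the group means r was 0.874 to 0.936. The mean joins genes that rose with genes that fell, and some of them passed the minimum through the groups in which they are high. The libraries also share groups, litters and their normalization. These values, the ranges of the groups included, are therefore a description.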

How the data were processed

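Livers of 20 fetuses gave stranded poly(A) libraries read as single ends of 75 bases, per the labels' protocols. The submitters' processing notes name bcl2fastq 2.17.1.14, Partek 7.0 and the build GRCm38.p6. The authors deposited log2 values that had been quantile normalized, since every library has the same quantiles. How reads were counted, and whether by strand, is not given in the sources. Depth is unknown, and blank cells were read as no value.

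One fit of group means over all 20 libraries used limma 3.58.1 under R 4.3.3, with lmFit, contrasts.fit and eBayes with a trend, at 15 residual and 4.09 prior degrees of freedom. Two-sided p-values were adjusted (Benjamini-Hochberg) over all genes with a log2 value of at least 0 in at least 4 libraries, and an adjusted p under 0.05 was a call. The fit was tested on simulated data, and the test of sex had group as a covariate. Fetuses counted as independent although some are presumed littermates, so litters and fetuses are not separated. The P450 genes, gene lists and tests were chosen with earlier results of these data known. Some list genes and a motif are not reported here. Genes named were the 12 with the highest mean, up to 8 called per direction and comparison, the highest of each subfamily and a list of 16, of which the text gives part, besides genes that illustrate a limit. Windows of 75 bases were compared between GENCODE M21 transcripts. Alternatives were other scalings, pseudocounts of 0.1 and 4, a minimum in 12 libraries, blocks for litter or replicate number, other fits, and leaving out libraries. Leaving out 4 libraries with transcripts of other tissues and summing near-identical genes were added after seeing the data.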

Additional observations from a re-analysis of the deposited data

Results flagged for a closer look

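In 112 sets of 4 libraries, each a P450 gene in a group, 4 held 1 library far from the other 3 by Dixon's criterion, which chance meets in about 1 of 20 sets. Cyp2d26 was at 7.48 in FloxDam_FloxFetus replicate 1 and at 8.32 to 8.40 in the others. Cyp3a16 was at 4.79 in HetDam_HetFetus replicate 2, below the 5.51 to 5.59 of the other fetuses of that group. Cyp3a25 was at 0.40 in KODam_KOFetus replicate 1 against 2.45 to 2.69. Cyp2a22 was at -4.80 in HetDam_HetFetus replicate 3 against 0.80 to 1.95, and it is the gene that split the libraries otherwise than the groups did.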

How the results depend on the processing

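None of the 28 calls of a P450 gene changed direction under the 34 alternatives tried, and 14 of them kept the call under every alternative that could test them. Of the 133 pairs without a call, 52 changed sign under some alternative. Without the littermate pair, the maternal Ppara comparison held 2845 genes and 5 lower P450 genes, the fetal comparison 0 P450 genes, and the difference of the maternal effects 1 gene. Without the 4 libraries with transcripts of other tissues, 7 P450 genes were lower in the maternal comparison and 6 in that of both knockouts (1757 genes), and the difference of the maternal effects held 1 gene. With the minimum in 12 libraries, 1 P450 gene was higher in the maternal comparison, and the control groups held 10 genes and sex 2. The fetal comparison held 0 P450 genes with a pseudocount of 4, with its own groups alone (63 genes), with litter as a block and with blanks at the lowest value. A pseudocount of 4 gave 2 genes for the difference of the maternal effects and 7 for the control groups, which held 8 with litter as a block and 26 without the trend. Quantile normalization of the tested genes alone gave 1 gene for the Cpt2 comparison. In each of these the cause was not tested.

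Leaving out 1 library at a time gave 3536 to 4643 genes and 10 to 12 lower P450 genes in the maternal comparison, 75 to 147 and 0 to 1 in the fetal one, and 1828 to 3024 and 8 to 12 in that of both. It gave 0 to 1 gene for Cpt2, 0 to 421 for the difference of the maternal effects (421 without Cpt2LKODam_FloxFetus replicate 4, with 0 P450 genes), 8 to 35 for the control groups and 6 to 7 for sex. The 147 were found without KODam_KOFetus replicate 3, the 1828 without its replicate 4, and the 35 without HetDam_HetFetus replicate 1. Scaling moved the split of all calls: with a trimmed mean the maternal comparison had 49.8% of its calls higher (67.8% as deposited, 55% with quantile normalization of the tested genes) and a median of 0.02, and that of both 45.4% (70.4% and 55.9%), while all 28 P450 calls remained. A trimmed mean added Cyp2c67 to the maternal comparison (limma adjusted p = 0.0233) and Cyp2d10 to that of both (0.0316), and quantile normalization of the tested genes added Cyp2c67 (0.0165). Other calls gained were Cyp2b9 in the maternal comparison and Cyp2f2 and Cyp2d9 in that of both. A replicate block by the number in the titles gave 4681, 102 and 3050 genes in these 3 comparisons, 15 for the control groups, 5 for sex and 0 for the other 2, and kept all 28 P450 calls. Of 40 same-numbered pairs, 17 correlated at over 0.1. All 4 did so between KODam_HetFetus and FloxDam_FloxFetus (0.11 to 0.257), which were not compared directly. In none of the 5 direct comparisons of groups did all 4 do so. HetDam_HetFetus and FloxDam_FloxFetus came close, at 0.229, 0.318, 0.232 and 0.0989. No label says that the numbers pair fetuses, and they were not taken as pairs.

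The depth is unknown, so no precision from counting can be given for low values such as those of Cyp2c69, Cyp2a4 and Cyp2b9. The choice of the minimum decides which of the 61 genes are counted.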
